A study of Mus musculus with 2 samples.

Results

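Genes of the DNA methylation system, 9 in number, were followed across the 2 arrays of this study: Uhrf1, Uhrf2, Dnmt1, Dnmt3a, Dnmt3b, Tet1, Tet2, Tet3 and Mbd2. A probe belonged to the set where its gene name was 1 of these 9 in both scanner files and it was no control spot, which gave 27 of the 56605 distinct probes. All 9 genes were measured, among 16908 measured genes of 37061 gene names in all. A gene counted as measured where the scanner software called its brightest probe well above background, or detected, in both cultures.

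The cells were C2C12 mouse myoblasts, which stop dividing and fuse into myotubes once serum is reduced, and per the labels the experiments used myotubes. The KPC-exo culture received 4 µg of exosomes (small membrane vesicles shed by cells) for 24 h. These vesicles came from 1 mouse pancreatic cancer line made from tumour tissue of KPC mice, which carry the alleles KrasLSL-G12D/+ and Trp53LSL-R172H/+ together with Pdx1-Cre. In the control, called MPDC-exo, the vesicles came from a mouse pancreatic ductal epithelial line and were also given for 24 h, at a dose that the labels do not state. Both groups therefore received exosomes, and no culture without exosomes was analysed here. The comparison sets myotubes given vesicles of cancer cells against myotubes given vesicles of ductal cells. Each group had 1 array of total RNA, so no difference below has a replicate check and none was tested.

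DNA methylation places a methyl group on cytosine, mostly at CpG dinucleotides. DNMT1 copies the mark onto the new strand after replication, guided by UHRF1, which binds CpG methylated on the old strand alone. DNMT3A and DNMT3B write the mark on unmethylated DNA, TET enzymes oxidise methylcytosine on the way to its removal, and methyl-CpG-binding proteins such as MBD2 read it. In muscle cells this machinery is known from work on the switch from dividing myoblasts to myotubes. Only mRNA was measured here, so the values say nothing of methylation itself.

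The array signals must be read relative to each other. The 75th percentile of the processed signal was 639 units on the KPC-exo array and 380 units on the MPDC-exo array, and each log2 level below is relative to its own array's percentile. The median difference (KPC-exo minus MPDC-exo) over all measured genes was 0.06 on the log2 scale, with an SD of 0.35 and a central 95% from -0.73 to 0.67. The scanner software's own error is given after each ± sign, spots of the same bright probe had a median SD of 0.03 on either array, and probes of the same gene differed with a pooled SD of 0.36 over 5767 genes. Each member probe was spotted once. Centring on 7 spike-in probes in place of the percentile moved the median of all measured genes to 1.06. The words "lower" and "higher" below are therefore meant relative to most of an array's genes. The spike-in scale adds 1.00 to each difference, which turns the sign of every negative member and of every negative listed gene that was measured.

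Of the 12 myotube markers, all were measured, and their summed signal was 709 times the percentile level on the KPC-exo array and 694 times on the MPDC-exo array. Their median difference was -0.07, with myoglobin (Mb) at 0.60, muscle creatine kinase (Ckm) at -0.44 and desmin (Des) at -0.41. Of 9 markers of proliferating or undifferentiated myoblasts 7 were measured, with Myf5 and Pax3 detected on neither array. Of 6 fibroblast markers 5 were measured, with a median of -0.06, among them Dpt at -0.30, Col3a1 at -0.29 (probes from -0.46 to 0.81) and Pdgfra at 0.27, while Thy1 was detected on neither array. Another 10 markers stood for pancreatic duct epithelium and carcinoma, the kinds of cell that released the MPDC-exo and KPC-exo vesicles. Of these only Krt19, at 0.13, and Sox9, at -0.16, were measured. The other 8, among them Epcam, Krt7, Krt8, Krt18, Cdh1, Cldn4 and Pdx1, were detected on neither array. The labelled myotubes were thus present by their markers, with signal of dividing cells and of fibroblast genes beside them.

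**Figure D1:**
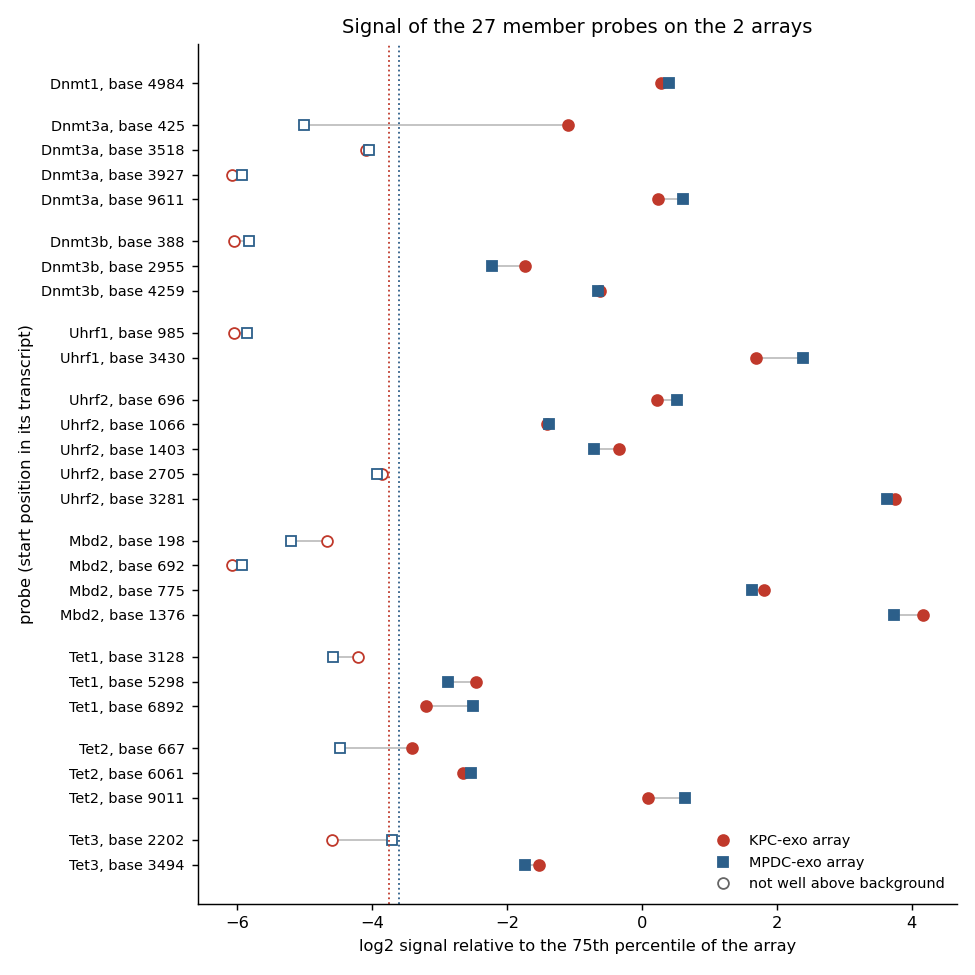
Log2 signal of each of the 27 member probes (rows, named by gene and start position in the transcript) relative to the 75th percentile of its array, on the KPC-exo array (circles) and the MPDC-exo array (squares). Open symbols are not well above background. Dotted lines mark the detection limit, the lowest log2 level of any detected probe, -3.76 on the KPC-exo array and -3.61 on the MPDC-exo array.

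The maintenance gene Uhrf1 was the member with the lowest difference. Its signal at the probe that starts at base 3430 of the transcript was 2052 units on the KPC-exo array and 1993 units on the MPDC-exo array before scaling. Relative to the 75th percentile, the log2 level was 1.68 on the KPC-exo array and 2.39 on the MPDC-exo array. The difference was -0.71 ± 0.20, or 1.63-fold lower in the KPC-exo culture, with the sign turned to 0.29 on the spike-in scale. Uhrf1 was the 1 member of 9 that was 1.5-fold or more lower, against 3.71% of all measured genes, and 0 members were 1.5-fold or more higher, against 3.66%. Among all measured genes, 2.72% had a difference as low as that of Uhrf1, and among the genes in the same quartile of signal, quartile 3 from the dim end, 1.30% did. In that quartile 1.66% of genes were 1.5-fold or more lower.

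Only 1 of the 2 Uhrf1 probes gave a level. The measured probe lies on chr17:56462770-56462829 on the plus strand (mm9), and the probe at base 985, whose 60 bases span 654 bases of the genome, was detected on neither array. The first 30 of the 60 bases of each are shown because the Uhrf1 value rests on the first and the second gave no level:
Uhrf1, base 3430: tgtgtctcatggaaactaaaccatttacta
Uhrf1, base 985: agctatacggcaacatcaggctcttgaatg
No member probe shared a run of 20 bases with any other probe of the array.

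Over 9 alternatives other than the spike-in centring the Uhrf1 difference ran from -0.78 to -0.60. All of them read the same spot on each array. The mean over probes cannot change a gene with 1 measured probe, and keeping flagged spots could move only the centring here. Set against the median of all genes under each alternative, it ran from -0.79 to -0.66.

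**Figure D2:**
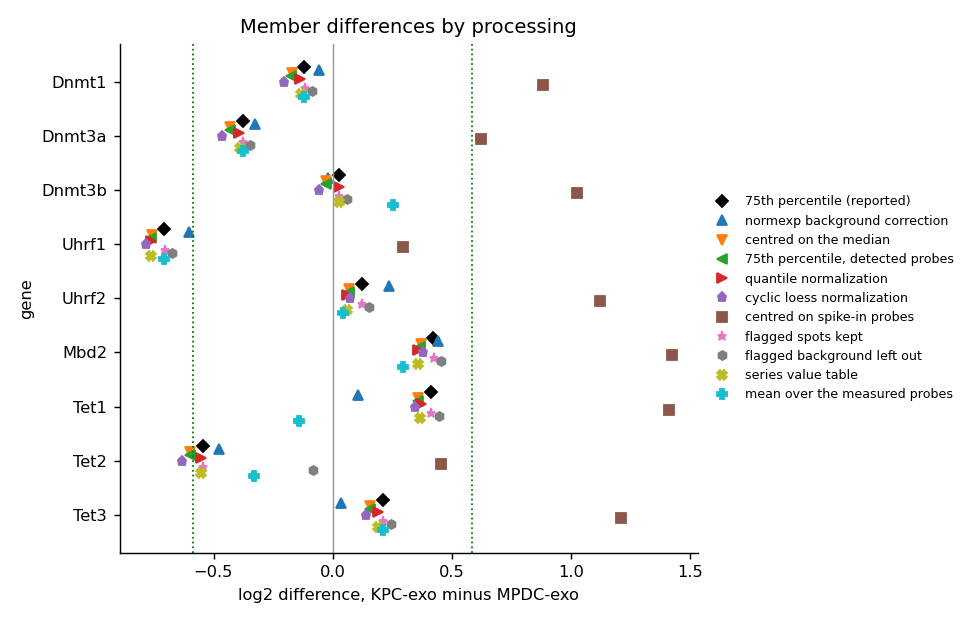
Log2 difference (KPC-exo minus MPDC-exo) of each member under the percentile scaling (black diamonds) and each alternative processing (coloured symbols), with dotted lines at 1.5-fold. Uhrf1 stays between -0.78 and -0.60 except at 0.29 with the spike-in centring, which places 7 members past 1.5-fold on the higher side.

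Dnmt1, the maintenance methyltransferase that UHRF1 guides, had 778 units on the KPC-exo array and 503 units on the MPDC-exo array at its 1 probe. The log2 levels were 0.28 on the KPC-exo array and 0.40 on the MPDC-exo array, a difference of -0.12 ± 0.21. This is within the scanner error and within the spread between probes of a gene, and it was 0.88 on the spike-in scale. The Dnmt1 probe starts at base 4984 and covers parts of chr9:20711973-20712341 on the minus strand (mm9), 369 bases of the genome for 60 bases of probe.

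Uhrf2 encodes a relative of UHRF1 that is known to bind hydroxymethylcytosine and does not replace UHRF1 in maintenance. It was measured by 4 of its 5 probes, the one at base 2705 being detected on neither array. The brightest, at base 3281 on chr19:30167958-30168017 (mm9), had 8585 units on the KPC-exo array and 4696 units on the MPDC-exo array, with log2 levels of 3.75 on the KPC-exo array and 3.63 on the MPDC-exo array, a difference of 0.12 ± 0.20. The other 3 measured probes did not share 1 direction. At base 696 the difference was -0.28 ± 0.21, with 747 units on the KPC-exo array and 541 units on the MPDC-exo array. At base 1066 it was -0.03 ± 0.22, with 240 units on the KPC-exo array, where the local background was flagged, and 146 units on the MPDC-exo array. At base 1403 it was 0.37 ± 0.21, with 505 units on the KPC-exo array and 232 units on the MPDC-exo array. Spans at least as wide as this 0.65 were present in 23.1% of the 5767 genes with at least 2 measured probes, so Uhrf2 has no single direction here.

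UHRF1, DNMT1 and their partners are best known in S phase, when the mark is copied, so 24 S phase genes were set beside them. Of these, 23 were measured, with a median difference of -0.01, and 0 were at least 1.5-fold apart in either direction. None of the 23 was as low as Uhrf1. The 3 with the largest differences were Fen1, a nuclease of lagging-strand synthesis, at -0.45, Pcna, the sliding clamp of replication, at 0.42, and Slbp, which binds histone mRNA, at 0.40 with probes from -0.07 to 0.40. The markers of proliferating or undifferentiated myoblasts had a median of -0.28, and 6 of 7 lay below the median of all genes. Among these were Mki67 at -0.33, Top2a at -0.41 and Ccnb1 at -0.41. The probes ran from -0.69 to 0.09 for Top2a and from -0.69 to -0.18 for Ccnb1. The 1 marker above that median was Cdk1, also a gene of dividing cells, at 0.11, so the division markers did not share 1 direction. The summed signal of the myoblast markers was 35.4 times the percentile level on the KPC-exo array and 40.3 times on the MPDC-exo array. In RNA of a whole culture, fewer dividing cells and less RNA per cell cannot be told apart, and their part in the Uhrf1 difference was not tested.

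The promoter windows of Uhrf1 and Dnmt1 are printed because, of the 8 members with a window in the RefSeq table (GRCm38.p6), these held an 8-base word of the kind that E2F factors, known regulators of S phase genes, can bind. The words searched on both strands were TTTCCCGC, TTTCGCGC, TTTGCCGC and TTTGGCGC, found in 1.07%, 0.323%, 0.441% and 0.514% of all 32851 windows, and 2.26% held any of them. Each window runs from 250 bases before to 50 bases after an annotated start, and capitals mark the words in either orientation:
Uhrf1, chr17:56304063-56304362, plus strand: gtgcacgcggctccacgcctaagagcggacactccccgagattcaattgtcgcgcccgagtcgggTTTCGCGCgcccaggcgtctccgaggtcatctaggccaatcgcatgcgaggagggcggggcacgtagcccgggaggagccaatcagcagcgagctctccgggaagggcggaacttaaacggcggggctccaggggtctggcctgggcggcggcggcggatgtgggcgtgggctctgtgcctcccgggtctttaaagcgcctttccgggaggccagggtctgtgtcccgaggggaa
Dnmt1, chr9:20952574-20952873, minus strand: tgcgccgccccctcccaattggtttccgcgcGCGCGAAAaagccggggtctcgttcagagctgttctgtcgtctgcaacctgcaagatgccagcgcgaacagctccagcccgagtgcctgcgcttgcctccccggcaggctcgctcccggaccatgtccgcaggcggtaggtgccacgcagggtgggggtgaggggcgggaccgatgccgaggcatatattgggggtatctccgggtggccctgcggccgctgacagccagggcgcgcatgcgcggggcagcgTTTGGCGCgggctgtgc
The Uhrf1 window holds TTTCGCGC on the gene's own strand at position -185, counted from the start. The Dnmt1 window holds TTTCGCGC on the opposite strand at position -219 and TTTGGCGC on its own strand at position 34. A word is a match of letters and not a shown site.

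The windows of the members held a median of 28 CpG, the dinucleotide these proteins act on. Those of related genes had medians of 29 for NuRD, 25 for the other readers and their relatives, 23 for the cofactors and 21.5 for the S phase genes. Of 13 windows of 8 members, 12 held more CpG than the median window, which held 7, and the counts ran from 2 at a Dnmt1 start to 57 at Tet2. Across the genes that carry an E2F-type word, 479 were measured, with a median difference of 0.04. Of these 2.30% were at least 1.5-fold lower and 1.46% higher, against 2.67% lower and 2.28% higher among the 10673 measured genes with a window. Of all 27025 genes with a window 2.60% held a word, beside 2 of the 8 members. For the other readers (7 genes with a window), NuRD (10), the methyl donor cycle (14) and the demethylation genes (16), the number was 0. Each word holds a CpG, and the genes were not matched for CpG content. Of the cofactors of methylation 5 of 17 genes with a window held a word, and of the S phase genes 6 of 20. Those S phase genes had differences from -0.34 for Pola1 to 0.32 for Mcm5.

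**Figure D3:**
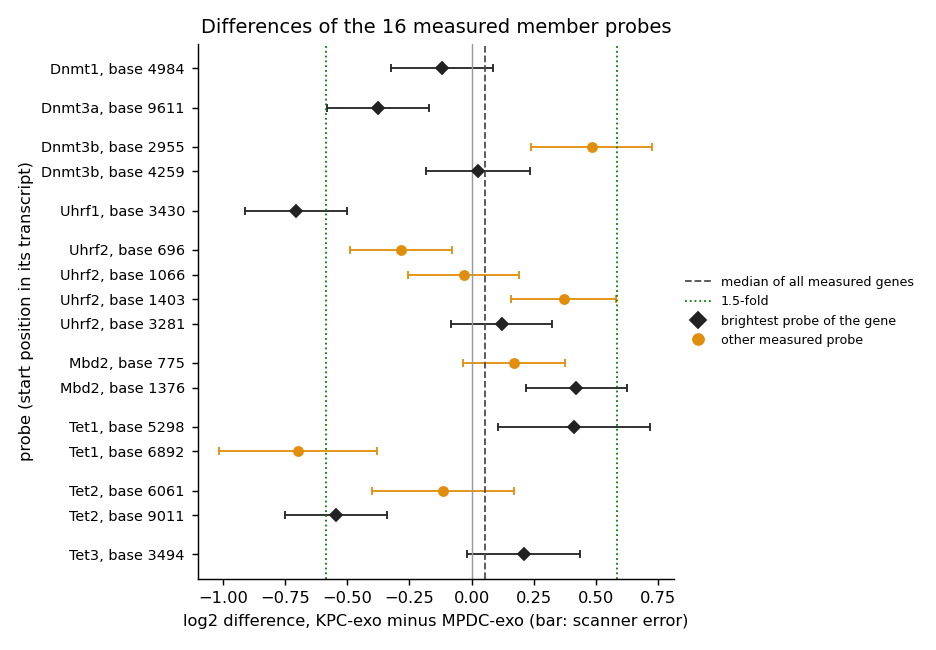
Log2 difference (KPC-exo minus MPDC-exo) of the 16 measured member probes, with the scanner software's error as bars, diamonds for the brightest probe of each gene and circles for its other measured probes. The dashed line is the median of all measured genes, 0.06, and dotted lines mark 1.5-fold, which the probes of Uhrf1 at -0.71 and of Tet1 at base 6892 at -0.70 pass on the lower side.

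Among the genes for de novo methylation, the brightest Dnmt3a probe was lower on the KPC-exo array and Dnmt3b was near 0. Dnmt3a had 750 units on the KPC-exo array and 580 units on the MPDC-exo array at the probe at base 9611, on chr12:3914320-3914379 (mm9). The log2 levels were 0.23 on the KPC-exo array and 0.61 on the MPDC-exo array, and the difference was -0.38 ± 0.21, or 1.30-fold lower. It ran from -0.46 to -0.32 over the 9 alternatives and was 0.62 on the spike-in scale, and 7.91% of measured genes were as low.

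A probe for another Dnmt3a transcript, at base 425 and on chr12:3895249-3895308 (mm9), was detected on the KPC-exo array alone. Its signal was 297 units on the KPC-exo array and 11.8 units on the MPDC-exo array, with log2 levels of -1.10 on the KPC-exo array and -5.01 on the MPDC-exo array. Set against the MPDC-exo array's detection limit, the KPC-exo signal was at least 5.68-fold higher. Of 56578 probes, 3.51% were detected on the KPC-exo array alone, and a bound of at least 5-fold was reached by 0.0707%. Neither spot carried a quality flag. The bound depends on the background treatment, since after normexp correction the log2 values of this probe were 1.5 apart, a smaller ratio than the bound. The MPDC-exo spot gave no level, so no difference was measured. The Dnmt3a probes at bases 3518 and 3927 were detected on neither array, so the value stands on 1 spot per array. The first 30 bases of the probe at base 425 and of the brightest one are shown because the first was detected on the KPC-exo array alone and the second was lower there:
Dnmt3a, base 425: aacaaacaaaacaaaaagtagaggcaggag
Dnmt3a, base 9611: atgttgatgtggaatcttactttcaaatgg

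Dnmt3b was measured by 2 of its 3 probes, on chr2:153513402-153513461 and chr2:153512098-153512157 (mm9). The brightest, at base 4259, had 415 units on the KPC-exo array and 243 units on the MPDC-exo array, with log2 levels of -0.62 on the KPC-exo array and -0.65 on the MPDC-exo array. Its difference was 0.03 ± 0.21. The probe at base 2955 had 192 units on the KPC-exo array and 81.6 units on the MPDC-exo array, and its difference was 0.48 ± 0.24. That second value was 0.17 with normexp background correction. The probe at base 388 was detected on neither array.

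The cofactors of maintenance and de novo methylation stood near the bulk of the genes. Of 18 listed, 16 were measured, with a median difference of 0.00, and 1 was at least 1.5-fold lower. That gene was Cbx5, which encodes the heterochromatin protein HP1 alpha, at -0.70, although its second measured probe gave -0.09. Pcna, which also holds DNMT1 at the replication fork, was at 0.42, and Cdca7l, a relative of the HELLS partner CDCA7, was at -0.41 in dim signal. Hells, which encodes a remodelling helicase needed for methylation of repeats, had 1 probe, detected on the KPC-exo array alone and too dim for a fold.

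The erasers gave no common direction. Tet1, which encodes a dioxygenase with its own CpG-binding domain, had a pair of measured probes of opposite sign. At base 5298, on chr10:62276042-62276101 on the minus strand (mm9), the signal was 116 units on the KPC-exo array and 51.9 units on the MPDC-exo array, and the difference was 0.41 ± 0.30. At base 6892, on chr10:62274448-62274507, the signal was 69.6 units on the KPC-exo array and 67.1 units on the MPDC-exo array, and the difference was -0.70 ± 0.32, or 0.30 on the spike-in scale. The probes were 1.11 apart, more than their scanner errors. Of the 356 genes in the same, lowest quartile of signal with at least 2 measured probes, 7.58% had probes at least that far apart, and 45.5% had probes of opposite sign.

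The mean over the Tet1 probes was -0.14, so the sign of Tet1 depends on the probe. Of all measured probes 5.43% were at least 1.5-fold lower and 4.64% higher, and of the 16 measured member probes 2 were lower and 0 higher, those of Uhrf1 and of Tet1 at base 6892. The first 30 bases of both Tet1 probes are shown because they disagree:
Tet1, base 5298: gaatctacagacttctgtcccctgcaggct
Tet1, base 6892: ctgtactcaaataacacacggcttctgttc
The probe at base 5298 had a GC content of 51.7% and the one at base 6892 had 35.0%, and another probe, at base 3128, was detected on neither array.

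Tet2, whose protein lacks the CpG-binding domain of its relatives, had the second lowest difference, after Uhrf1. Its brightest probe, at base 9011 on chr3:133126751-133126810 on the minus strand (mm9), had 679 units on the KPC-exo array and 590 units on the MPDC-exo array. The log2 levels were 0.09 on the KPC-exo array and 0.63 on the MPDC-exo array, a difference of -0.55 ± 0.21, or 1.46-fold lower and just inside the 1.5-fold limit, and 0.46 on the spike-in scale. The local background of that spot was flagged on the KPC-exo array, and without it Tet2 stood at -0.08, the value of the probe at base 6061 under that setting. That probe had 102 units on the KPC-exo array and 65.5 units on the MPDC-exo array, and its difference was -0.11 ± 0.29 with all spots kept. The third probe, at base 667, was detected on the KPC-exo array alone and at least 1.15-fold higher there, a bound that normexp correction removes, leaving the log2 values 0.07 apart. The first 30 bases of the probe that sets the Tet2 value are shown here:
Tet2, base 9011: gcttacttcctgagattttggctttgttta

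Tet3 was measured by 1 of its 2 probes, at base 3494 on chr6:83319720-83319779 on the minus strand (mm9). It had 222 units on the KPC-exo array and 114 units on the MPDC-exo array, with log2 levels of -1.52 on the KPC-exo array and -1.73 on the MPDC-exo array. The difference was 0.21 ± 0.23, within the scanner error, and the probe at base 2202 was detected on neither array.

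Downstream of the TET enzymes, methylcytosine derivatives are cut out and replaced by base excision repair. Of 21 such genes 18 were measured, with a median of 0.10, and 0 were at least 1.5-fold apart. Neil3, a DNA glycosylase, was at -0.48 by 1 of its 2 probes, in the lowest quartile of signal, where differences had an SD of 0.49. Xrcc1, the scaffold of single-strand repair, was at 0.41, and Smug1, a uracil glycosylase, was at 0.39 with its probes between -0.97 and 0.39. Neil2, another glycosylase, was detected at 1 of its 3 probes, on the MPDC-exo array alone and at least 4.02-fold lower with KPC-exo. The KPC-exo spot signal was below the detection limit, so no difference was measured. Of all probes 1.82% were detected on the MPDC-exo array alone, a share that counts bounds of any size.

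The reader Mbd2 had the highest difference of the 9 genes. MBD2 binds methylated CpG and brings the NuRD complex, a chromatin remodeller with deacetylase activity. Its brightest probe, at base 1376, had 11440 units on the KPC-exo array and 5083 units on the MPDC-exo array. The log2 levels were 4.16 on the KPC-exo array and 3.74 on the MPDC-exo array, and the difference was 0.42 ± 0.20, or 1.34-fold higher, short of the 1.5-fold limit. The second measured probe, at base 775, had 2226 units on the KPC-exo array and 1176 units on the MPDC-exo array and gave 0.17 ± 0.20, with a flagged local background on the KPC-exo array. Both probes had the same sign. Among the genes in the same, highest quartile of signal, 3.05% had a difference as high as that of Mbd2. Over the 9 alternatives it ran from 0.30 to 0.45, and it was 1.42 on the spike-in scale. The probes at bases 198 and 692 were detected on neither array.

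The genes set beside Mbd2 stayed close to the bulk. Of 9 other genes, listed as methyl-CpG readers or relatives of readers, 8 were measured, with a median of 0.09, and 0 were at least 1.5-fold apart. Zbtb38, a zinc-finger reader, was at 0.27 with probes from -0.92 to 0.27, and Mbd3, the NuRD subunit that takes the place of MBD2, was at 0.26 with probes from -0.73 to 0.26. All 13 NuRD genes were measured, with a median of -0.02. Rbbp4, a histone-binding subunit, was the 1 gene at least 1.5-fold lower, at -0.61, although its probes ran from -0.61 to 0.38. Hdac2, a deacetylase of the complex, was at -0.34 with 1 probe in the lowest quartile of signal. Mta3, a scaffold subunit, was at 0.35 with probes from -0.49 to 0.35.

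**Figure D4:**
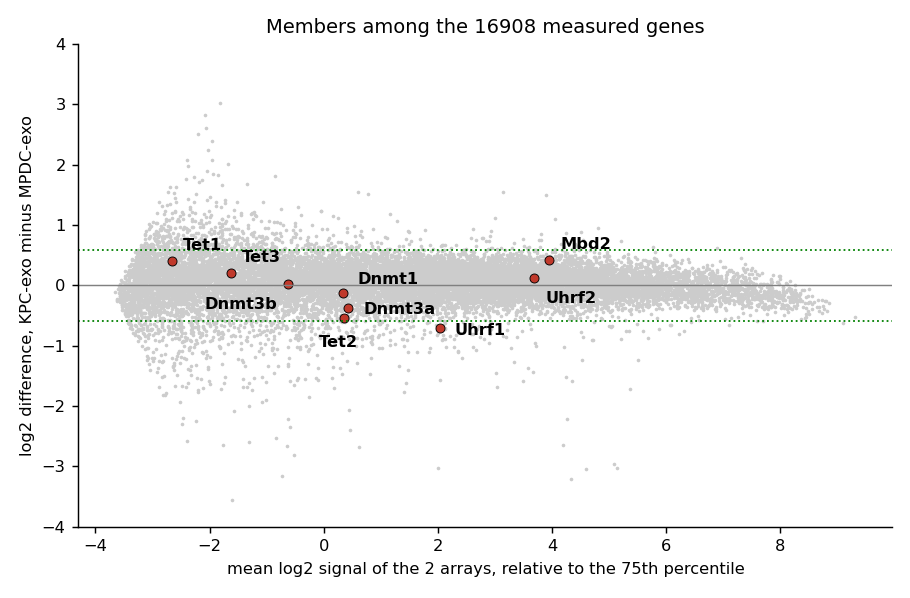
Log2 difference (KPC-exo minus MPDC-exo) against the mean log2 signal of both arrays for 16908 measured genes (grey), with the 9 members in red and dotted lines at 1.5-fold. Uhrf1 at -0.71 lies below the lower line, Tet2 at -0.55 just above it, and the other members lie between -0.38 and 0.42.

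As a set, the 9 genes had a median difference of 0.03 and a mean of -0.06, beside the median of 0.06 over all measured genes. Of the 9, 5 lay below that median and 4 above it. Of their 16 measured probes 8 were negative and 8 positive. Of the 5 members with at least 2 measured probes, Dnmt3b, Mbd2 and Tet2 kept 1 sign and Uhrf2 and Tet1 did not, while 53.8% of the 5767 genes with at least 2 measured probes had probes of opposite sign. The spread between arrays depends on signal, the SD of the differences being 0.49, 0.36, 0.26 and 0.25 from the lowest to the highest quartile of measured genes. Tet1 and Tet3 lay in the lowest quartile, Dnmt1, Dnmt3a, Dnmt3b and Tet2 in the next, Uhrf1 in the third, and Uhrf2 and Mbd2 in the highest.

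The methyl donor cycle supplies S-adenosylmethionine to the DNA methyltransferases. Of 16 genes 14 were measured, with a median of -0.02, and 1 was at least 1.5-fold lower. That gene was Ahcy, which breaks down the product that inhibits methyltransferases, at -0.92 with 1 probe in the lowest quartile of signal, where 7.59% of genes were at least 1.5-fold lower. Ahcyl2, a relative of Ahcy, was at 0.37 with probes from -0.09 to 0.37, and Mtrr, which keeps methionine synthase active, at 0.31.

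Germline genes that promoter methylation is known to silence in somatic mouse cells were mostly not detected. Of 18 listed, 3 were measured, with differences of 0.24 for the testis gene Brdt, 0.11 for the germ cell transcription factor gene Taf7l and 0.02 for the testis tubulin gene Tuba3a. Another 14 of the listed genes were detected on neither array. For Brdt, 1 of its 3 probes gave the difference, and 1 was detected on the MPDC-exo array alone. Zfp42, a pluripotency gene also called Rex1, was detected on the KPC-exo array alone at 1 of 2 probes, at least 3.0-fold higher there. The MPDC-exo spot gave no level, so no difference was measured. Of all probes 3.51% were detected on the KPC-exo array alone, and 0.424% reached a bound of at least 2-fold. The Zfp42 bound was not recomputed after normexp correction.

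**Figure D5:**
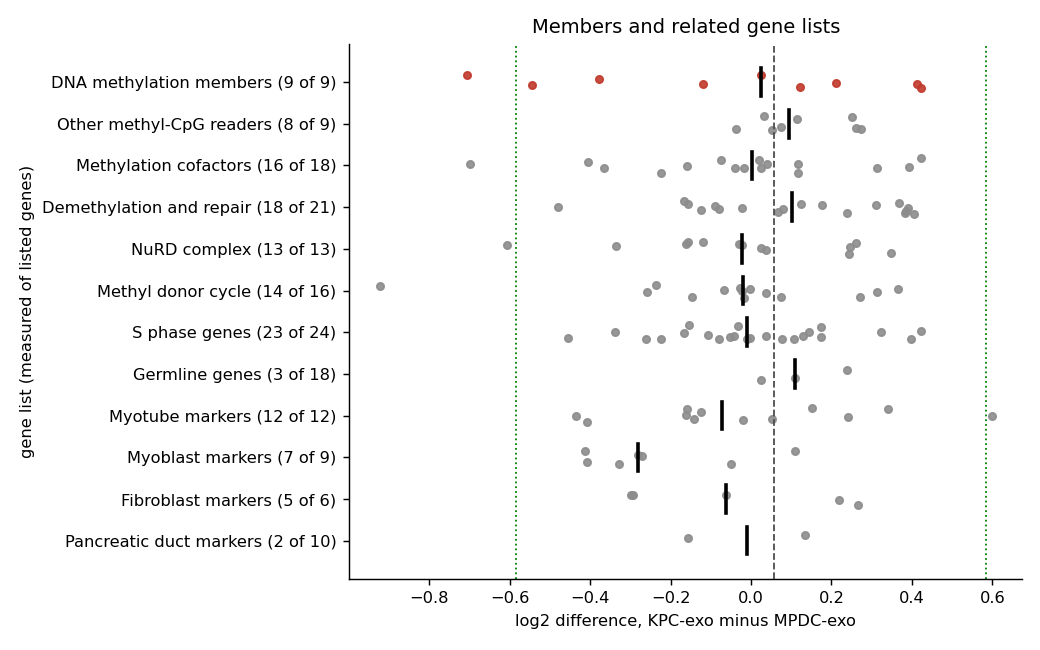
Log2 difference (KPC-exo minus MPDC-exo) of each measured gene in the member set (red) and in the related and marker lists (grey), with a black bar at each list's median, a dashed line at the median of all genes and dotted lines at 1.5-fold. List medians lie between -0.28 for myoblast markers and 0.11 for germline genes, of which 3 of 18 were measured.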

How the data were processed

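Total RNA of C2C12 myotubes was measured on 2 Agilent 1-colour arrays, 1 per group, grouped by the treatment in the labels. Per the labels, Cy3-labelled cRNA was made with a linear amplification kit. The submitters' processing notes and the file headers say that the scans went through Agilent Feature Extraction 10.7.1.1, whose output is a background-subtracted processed signal. The deposited scanner values are linear spot intensity, and nothing had been normalized across the arrays. The deposited series value table holds log2 values with a median of 4.88 in both columns, for which the sources used here state no method. Their sorted columns differed by at most 0.000481, and they served as an alternative.

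Of 62976 features, 59305 are no control spots. Flagged spots, 166 on the KPC-exo array and 102 on the MPDC-exo array, were left out, and no spot was saturated. The 75th percentile over probes was subtracted from log2 of the processed signal. The brightest probe stood for a gene and was counted as measured where well above background on both arrays, which 47.6% of probes were on the KPC-exo array and 45.9% on the MPDC-exo array. A probe well above background on 1 array received a bound, its level over the higher of its own level and the lowest level well above background on the other array. The number of arrays limits the precision. Per the file headers, positions are those of mm9, and without an mm9 annotation probes were not placed in exons or introns. Accessions of 32994 probes, among them 19 of the 27 member probes, matched RefSeq names of GRCm38.p6, and no member name changed.

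With 1 array per group, a gene counted as apart at 1.5-fold, beside the share of all measured genes. All members and all their probes are named, and of each list the genes past 1.5-fold, or the 3 with the largest differences where fewer passed. Exceptions are genes named for a bound, for an absent marker, for a promoter word or for a direction opposite to their list. Those genes were chosen after their values were seen. Some genes that this rule selects are not reported here. The members and lists were chosen with earlier results of these data known. Values were recomputed after normexp background correction (offset 50), after centring on the median, on 7 spike-in probes or on detected probes, after cyclic loess or quantile normalization, with other spot filters, with the mean over probes, with other filters on dim genes, with the series value table and with a lower and a higher fold threshold. The gene-level calls were run on simulated data, with shifts larger than the 1.5-fold limit and much less noise than these arrays show. That run checks the computing steps and says nothing of the error of calls on these arrays. The software was R 4.3.3 with limma 3.58.1, and Python 3.11.15 with pandas 2.3.3, numpy 2.4.6 and matplotlib 3.10.9.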

Additional observations from a re-analysis of the deposited data

How the results depend on the processing

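Of the values for single genes, probes and lists under the alternatives, 265 moved by less than the spread between probes of a gene (0.36). Another 27 moved by more, as did 2 that stood past 1.5-fold and turned sign, Uhrf1 and the Tet1 probe at base 6892. All did so with spike-in centring except the Tet2 and Tet1 values for which another setting is named below. The 27 also hold smaller values that turned sign, such as Dnmt1, from -0.12 to 0.88 with spike-in centring. The count of members at least 1.5-fold lower, 1 in the values reported, was 2 with centring on the median, with the percentile over detected probes and with cyclic loess normalization, where Tet2 joined Uhrf1, and 0 with spike-in centring. It was 3 at the lower fold threshold tried and 0 at 2-fold. The count of members higher was 7 with spike-in centring and 2 at the lower threshold, against 0 reported. Spike-in centring also moved the members' median to 1.03 and turned Uhrf1 to 0.29 and the Tet1 probe at base 6892 to 0.30, since it adds 1.00 to every gene. Leaving out spots with a flagged local background moved Tet2 to -0.08, and the mean over probes moved Tet1 to -0.14. Genes lower and higher by 1.5-fold over the whole array numbered 437 and 269 with normexp correction, 738 and 488 with median centring, 742 and 484 with the percentile over detected probes, 768 and 452 with loess, 2650 and 3028 with no filter on dim probes, 307 and 208 without the dimmest 25%, and 57 and 15793 with spike-in centring, against 628 and 619 reported. No paired analysis was possible because each group has 1 array. Among probes with replicate spots the 12 dimmest had a median SD of 0.11 on the KPC-exo array and 0.10 on the MPDC-exo array. Variation between cultures was not measured.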
